A study of Mus musculus with 154 samples.

Results

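C57BL/6J (B6) mice of an inbred line are genetically identical, so differences between their livers come from something other than segregating alleles. The 20 B6 mice described here were all the B6 samples of a study of male mice that compared B6 with mice carrying A/J chromosomes in a B6 background. They were chosen by their strain label alone. The other mice came from 23 crosses of chromosome substitution strains (CSSs), with 63 mice heterozygous for 1 A/J chromosome (8 single CSSs) and 71 heterozygous for 2 (15 double CSSs), and served only for comparison. All mice were 5 weeks old and were fasted overnight before the caudate lobe of the liver was taken for stranded total RNA sequencing. Before the liver was taken, the mice were anesthetized with isoflurane, bled behind the eye for the glucose measurement and killed by cervical dislocation. The B6 mice carried no transgene and came from a breeding colony with several independent cages. The cage, litter, time of collection and flow cell of each mouse were not given in the sources used here, so that a cage or batch effect cannot be told apart from any other difference between mice.

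In the fasted liver, hepatocytes switch from storing to releasing fuel, and glucagon, glucocorticoids and fatty acids drive genes of gluconeogenesis, fatty acid oxidation and ketone synthesis. The young male liver is also being masculinised at this age. Pulses of growth hormone, which act through the growth hormone receptor and STAT5B, raise male-biased genes such as those of the major urinary proteins (Mup), and female-biased genes are repressed. Further programs that are known to move liver RNA within a day are the circadian clock, through its factors Arntl, Per and Dbp, and the acute-phase response to inflammatory cytokines, which raises serum amyloid A.

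The deposited table gave counts for 13289 genes in each liver, with a total between 6752637 and 25630807 counts (median 18806900). Values are given as CPM, counts rescaled to one common library total, after TMM scaling, which allows for a few dominating genes. The ribosomal RNA gene CT010467.1 took between 4.24% and 34.0% of the counts of a mouse, and mitochondrial genes took between 6.77% and 11.6%. The livers E776, E774, E752 and E630 had the fewest counts. No pair of mice agreed within counting error, and this includes E419 and E422, which are listed with the same weight and glucose. The hepatocyte markers Alb, Apoa1, Ttr and Apob were high in each mouse and varied little, and none of the 7 hepatocyte markers varied beyond what was usual for its level. Alb lay between 63724 and 110621 CPM, with a relative spread of 12.1%. The T and NK cell markers and the pancreatic acinar markers were not among the genes of the table. In bulk tissue, fewer cells of a type and less RNA per cell cannot be told apart.

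The counts of nearly every gene differed between the libraries of these isogenic livers by more than counting error. A goodness-of-fit test in edgeR against Poisson counting error, with Benjamini-Hochberg adjustment over all genes at an FDR of 0.05, called 11884 of 13289 genes (89.4%), and of the 1405 genes not called, 371 had a mean log2 CPM of 2 or more. The size of the spread was measured as the biological coefficient of variation (BCV), the relative standard deviation between mice that is left when counting error is taken off. The BCV also holds any difference in RNA handling and library preparation, because no mouse had repeat libraries. Its median was 12.9% over all genes and 11.4% over the 9514 genes with a mean log2 CPM of 2 or more, of which 1 in 10 exceeded 23.1%. A BCV over 50% was found in 121 of these genes and over 100% in 10. Since the usual BCV depends on a gene's level, each gene was also tested against the spread of genes of like abundance. By this test 1044 genes (7.86%) varied more than their abundance trend, 758 of them with a mean log2 CPM of 2 or more, and these 758 had a median BCV of 32.6%.

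**Figure D1:**
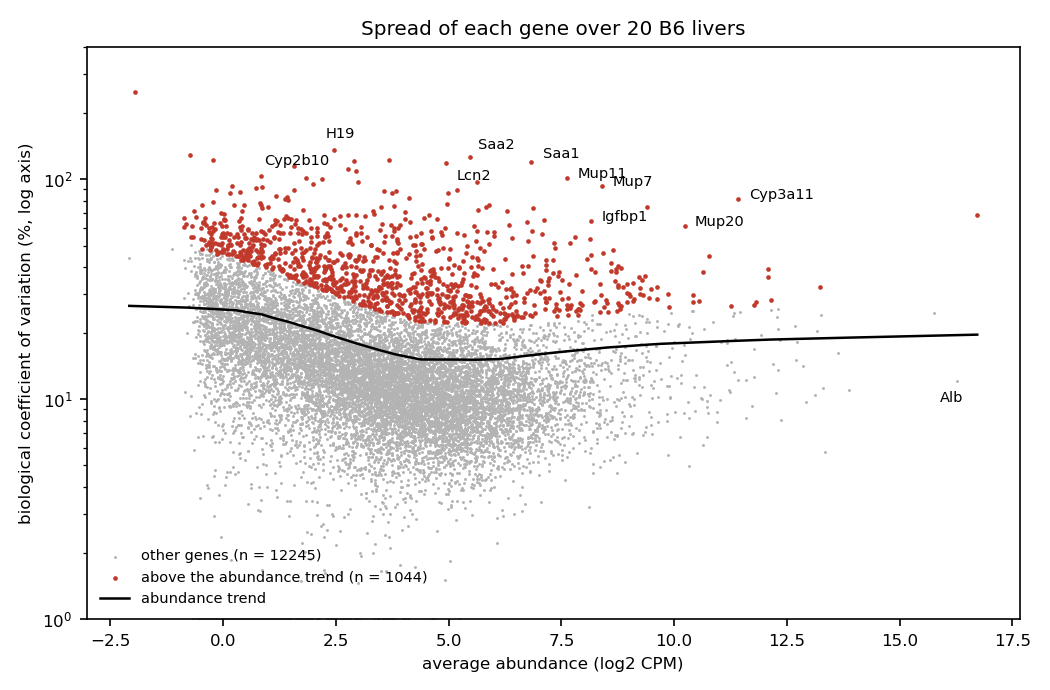
Each point is 1 of 13289 genes in 20 B6 livers, with its average abundance in log2 CPM on the x axis and its BCV in percent on a log y axis. The 1044 genes above the abundance trend (black line) are red, and H19, Saa1, Saa2, Lcn2 and several Mup genes lie at a BCV near or over 100%, whereas Alb lies below the trend.

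Protein-coding genes were above the trend in 853 of 11889 cases (7.17%), whereas small nucleolar RNA genes were so in 44 of 61 (72.1%) and small nuclear RNA genes in 10 of 11. Among the autosomes, chromosome 4, which holds the Mup cluster, had the largest share with 90 of 806 genes (11.2%), and the X chromosome had 15 of 386 (3.89%). No mouse held most of the extremes. Of the 758 genes, E373 was the highest mouse for 97 and the lowest for 120, E260 was the highest for 60 and the lowest for 93, and E566 was the highest for 9 and the lowest for 9.

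The acute-phase genes had some of the largest differences in the table, carried by a few mice. Saa1 (chr7:46740497-46742980, GRCm38), which encodes serum amyloid A secreted in inflammation, lay between 13.4 CPM in E260 and 955 CPM in E752, with a median of 37.0 CPM. Its next levels were 458 CPM in E422, 236 CPM in E691 and 94.1 CPM in E776, and the other 16 mice stayed at or under 47.6 CPM. Its BCV was 120% against 15.9% for genes of its level, and 95.4% without E752. Saa2, its neighbour and close relative on chromosome 7, ran from 4.42 CPM in E260 to 379.1 CPM in E752 and was highest in the same 4 mice, although reads of so similar a pair may be shared between them. Lcn2, encoding the iron-siderophore-binding protein lipocalin 2, ran from 3.61 CPM in E260 over a median of 8.58 CPM to 179.8 CPM in E422. E752 at 163.4 CPM and E691 at 78.4 CPM followed, so that the same 3 mice led all 3 genes.

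E422 was also the highest mouse for further acute-phase genes. Orm2, encoding an orosomucoid, was at 56.8 CPM in E422, whereas the other 19 mice lay between 4.19 and 13.97 CPM. The fibrinogen genes Fga and Fgg, the clotting-protein genes, and the protease inhibitor gene Serpina3n also peaked in E422, with Fga at 9795 CPM against a median of 4204 CPM. Of the 21 acute-phase genes in the table, 13 were above the trend (61.9%, against 7.86% of all genes), with a median BCV of 27.9% and a median pairwise correlation of 0.559 over the 20 mice. Both neutrophil markers in the table were above the trend, and 1 of 8 Kupffer cell markers was. That marker, the scavenger receptor gene Marco, was highest in E691 at 98.8 CPM against a median of 21.97 CPM. The part of other cells in the acute-phase levels was not tested.

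The Mup genes varied widely, with all 18 members of the table above the trend and a median BCV of 61.2%. They encode pheromone-binding proteins that the male liver secretes for excretion in urine. Mup7 (chr4:60066469-60070475, minus strand) ran from 11.01 CPM in E260 over a median of 263 CPM to 912 CPM in E776, and its BCV was 93.6% against 17.1% for genes of its level. E260, E419 and E691 stood apart at 11.01, 15.99 and 19.3 CPM, and the remaining mice started at 126.7 CPM. Mup11 ran from 17.1 CPM in E691 to 999.7 CPM in E776, and the same 3 mice were again the lowest. The members are near-identical in sequence, so that the reads of one can be assigned to another, and values of single Mup genes are uncertain to that extent. Mup20, which encodes the more divergent male pheromone darcin, followed another order. It ran from 315 CPM in E373 over 1069 CPM to 2745 CPM in E752, and E260 at 854 CPM was not among its lowest mice. Its correlation with Mup7 was 0.521, whereas the median pairwise correlation within the list was 0.744.

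Male-biased genes outside the Mup cluster were low in the same 3 livers. Of 14 such genes, 12 were above the trend, with a median BCV of 48.9%. Hsd3b5, a male-specific steroid-metabolising enzyme gene, was at 1.03 CPM in E419, 1.19 CPM in E691 and 3.22 CPM in E260, with a median of 9.40 CPM and a maximum of 56.3 CPM in E460. Its correlation with Mup7 was 0.825. Cyp7b1, an oxysterol hydroxylase gene, ran from 12.7 CPM in E419 over 103.4 CPM to 281 CPM in E369. Elovl3, a fatty acid elongase gene, ran from 7.999 CPM in E260 over 39.6 CPM to 172 CPM in E460. Both genes were thus lowest in livers of the Mup7-poor group, and Elovl3 and Hsd3b5 were highest in E460.

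Some genes of other lists were highest where Mup7 was lowest. Lepr, the leptin receptor gene, had its highest levels in the 3 livers with the least Mup7, with 203 CPM in E260, 141.1 CPM in E419 and somewhat less in E691, against a median of 38.2 CPM, and the next mouse was E761 at 89.8 CPM. H19, an imprinted noncoding RNA that is silenced in liver after birth, had the largest BCV of the genes with a mean log2 CPM of 2 or more, with 135%. It had no counts in E630 and E776, a median of 1.60 CPM, and 18.6, 20.7 and 30.1 CPM in E691, E260 and E419, whereas the next mouse was at 4.76 CPM. Of the 6 genes of the fetal list, which holds H19, 2 were above the trend (33.3%, against 7.86% of all genes).

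All 13 female-biased genes of the table were above the trend, with a median BCV of 63.4%, yet they did not move as one, and their median pairwise correlation was 0.0712. Cyp2b9, a female-predominant P450 gene, lay between 0.342 CPM in E776 and 36.0 CPM in E691, with a median of 3.94 CPM. Cyp2a4, a P450 gene of another subfamily, lay between 0.171 CPM in E776 and 26.2 CPM in E774. The correlation between Cyp2b9 and Cyp2a4 was 0.791. Cyp2b10, the classic target of the receptor CAR, was at 55.3 CPM in E373, 12.9 CPM in E760 and lower in all other mice, and its correlation with Cyp2b9 was 0.0712. Its BCV of 112% fell to 81.1% without E373. Sult1e1, the estrogen sulfotransferase gene, was also highest in E373 with 46.4 CPM, against 19.5 CPM in E752 and a median of 4.40 CPM.

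The drug-metabolising gene Cyp3a11 divided the mice into 2 sets of levels. It was at 7144 CPM in E566, 8350.0 CPM in E630, 8447 CPM in E760 and 8884 CPM in E776, and between 858 and 2014 CPM in the other 16. Its BCV was 81.8%, close to that of 77.0% without E776. Cyp3a59, a neighbouring relative on chromosome 5, the carboxylesterase gene Ces2a and the transporter gene Abcc3 varied with it as a group of 5 genes with a mean correlation of 0.723. Their ranges were narrower, with Cyp3a59 between 22.95 and 99.1 CPM and Ces2a between 83.3 and 312 CPM. Of the 16 xenobiotic-response genes, 9 were above the trend (56.2%, against 7.86% of all genes). Among them Hmox1, encoding the heme-degrading oxygenase, was led by 1 mouse, with 113 CPM in E691 against 29.9 CPM in the next mouse. Cyp2c69 ran from 5.17 CPM in E422 over 23.5 CPM to 137.6 CPM in E774.

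**Figure D2:**
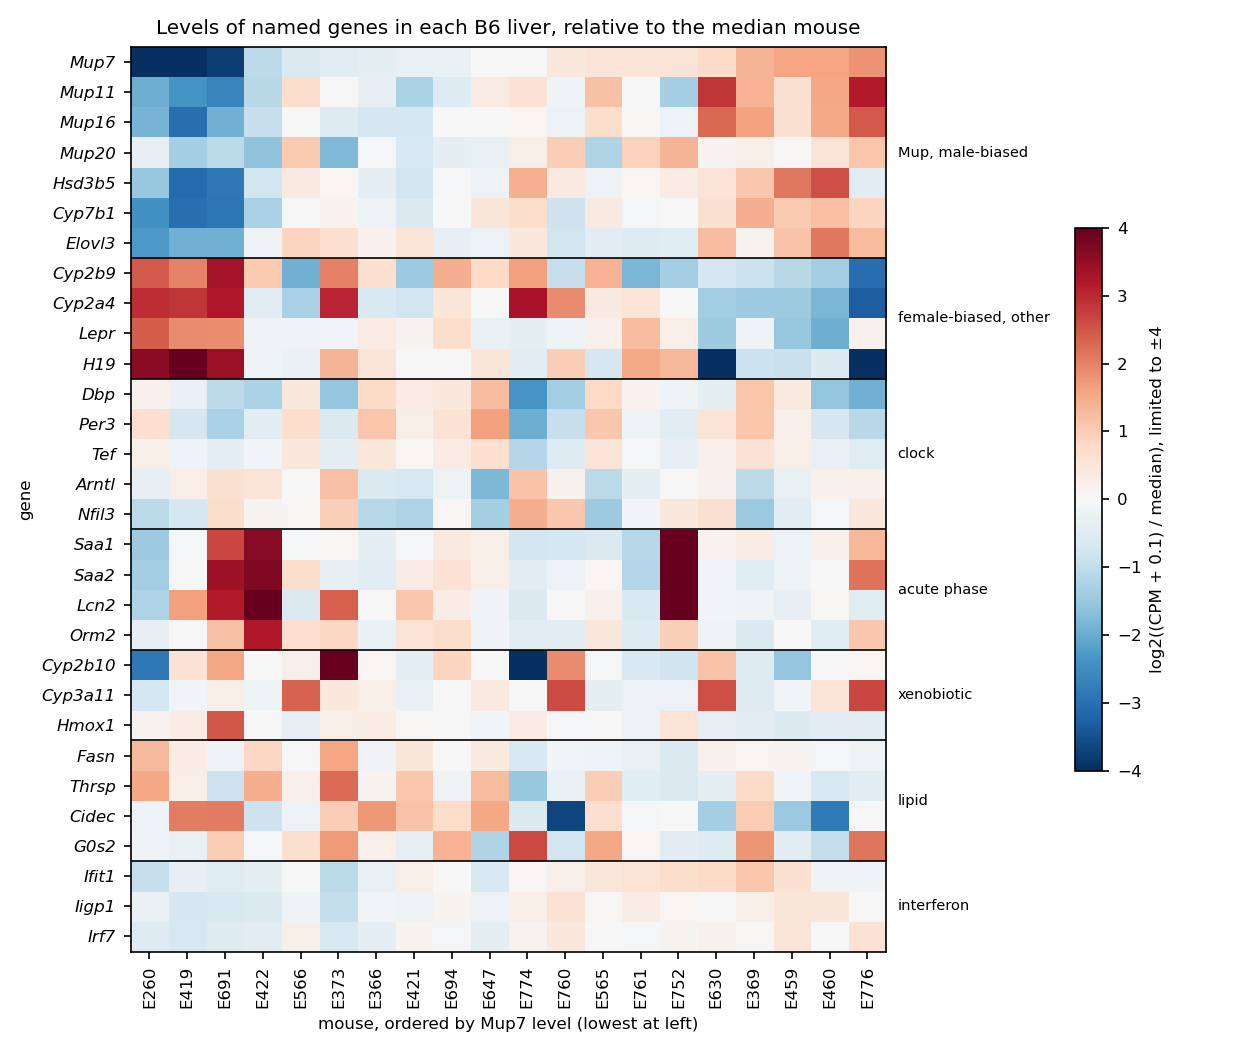
Levels of 30 genes (rows) in the 20 B6 livers (columns, ordered by Mup7), as the log2 ratio of CPM plus 0.1 to the median mouse, limited to 4 in either direction. The 3 leftmost livers, E260, E419 and E691, are blue for Mup7, Mup11, Mup16 and Hsd3b5 and red for Lepr and H19, whereas the clock, acute-phase and lipid genes follow other orders of mice.

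Of 14 genes of the growth hormone and IGF axis, 5 were above the trend (35.7%, against 7.86% of all genes). Igfbp1, an IGF-binding protein gene induced in fasting, ran from 53.7 CPM in E460 over 218 CPM to 659 CPM in E761. Socs2 and Cish, which encode feedback inhibitors of growth hormone signalling, had BCVs of 58.7% and 60.1%, and Igfals, the gene of the acid-labile subunit that carries IGF1 in blood, had one of 42.4%. Stat5b and the kinase gene Jak2 had BCVs of 11.5% and 8.68%. The growth hormone receptor gene Ghr ran from 194 CPM in E260 over 298 CPM to 430.3 CPM in E460, and E260, E691 and E419 were its 3 lowest mice. With a BCV of 21.96%, Ghr was not above the trend (adjusted p = 0.296 in edgeR's goodness-of-fit test), and neither was Igf1 (adjusted p = 0.347).

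The clock genes varied together in 2 opposed sets. Of 20 clock genes and output factors, 15 were above the trend (75%, against 7.86% of all genes), with a median BCV of 34.8%. Dbp, a clock-driven transcription factor gene, ran from 4.02 CPM in E774 over 21.1 CPM to 50.004 CPM in E647, and Per3, of the negative limb, ran from 3.10 CPM in E774 over 12.4 CPM to 38.5 CPM in E647. Arntl, which encodes the activator BMAL1, ran from 4.08 CPM in E647 over 14.6 CPM to 32.6 CPM in E373, with 32.3 CPM in E774. The mouse with the most Dbp thus had the least Arntl. Across the 20 mice Dbp correlated with Tef at 0.915, with Per3 at 0.908 and with Per2 at 0.680, and with Arntl at -0.859, with the repressor gene Nfil3 at -0.816 and with Cry1 at -0.687. Clock itself had a BCV of 10.1% and a range from 79.8 to 131.4 CPM. Per1, with a correlation of -0.223, and Bhlhe40, with 0.0335, did not follow Dbp closely.

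**Figure D3:**
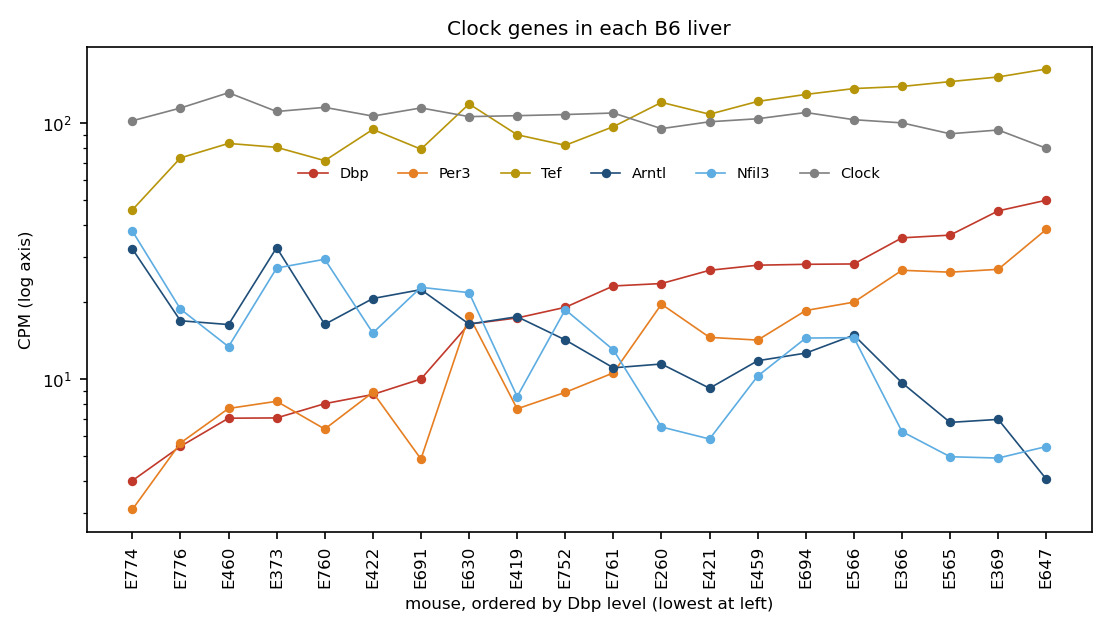
CPM on a log axis of 6 clock genes in each of the 20 B6 livers, ordered by Dbp from left to right. Per3 and Tef climb with Dbp from E774 to E647, Arntl and Nfil3 descend, and Clock stays between 79.8 and 131.4 CPM.

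Because these genes moved together, the 250 bases before their start sites were searched for the E-box CACGTG, the site of the BMAL1 and CLOCK pair, and for the D-box TTATGTAA, the site of DBP, TEF and NFIL3, on both strands. The E-box was found in 6 of the 22 promoters that the RefSeq table holds for 17 of the clock genes, against 6.02% of all 32851 promoters. The D-box was found in 1 of the 22, that of Per3, against 0.819% of all promoters. None of the 14 Mup promoters in that table held either motif or the STAT5 motif TTCNNNGAA, which was found in 7.02% of all promoters. Since the Mup genes are near-identical, these promoters are not independent, and those of Mup4, Mup15 and Mup19 belong to genes without counts here. The lack of a match therefore says little. The clock promoters with an E-box were those of Tef and Ciart and promoters of Cry1, Per1 and Bhlhe41. The last 3 genes correlated with Dbp at -0.687, -0.223 and 0.626, so genes with an E-box did not all rise with Dbp. The matching promoters of 3 clock genes, Tef, Ciart and Per3, are shown as examples. They are from RefSeq (GRCm38.p6), 5′ to 3′ on the strand of the gene, with the E-box in capitals for Tef and Ciart and the D-box in capitals for Per3.
Tef, upstream promoter: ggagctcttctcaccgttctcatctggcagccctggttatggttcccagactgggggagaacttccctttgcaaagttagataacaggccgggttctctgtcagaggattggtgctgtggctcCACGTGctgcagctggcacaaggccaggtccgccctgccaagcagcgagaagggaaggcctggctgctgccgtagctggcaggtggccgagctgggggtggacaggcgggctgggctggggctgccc
Tef, downstream promoter: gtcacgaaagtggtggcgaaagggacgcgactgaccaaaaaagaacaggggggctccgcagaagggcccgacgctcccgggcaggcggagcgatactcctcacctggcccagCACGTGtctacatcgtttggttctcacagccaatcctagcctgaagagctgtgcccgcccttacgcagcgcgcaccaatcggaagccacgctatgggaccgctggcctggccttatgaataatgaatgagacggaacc
Ciart: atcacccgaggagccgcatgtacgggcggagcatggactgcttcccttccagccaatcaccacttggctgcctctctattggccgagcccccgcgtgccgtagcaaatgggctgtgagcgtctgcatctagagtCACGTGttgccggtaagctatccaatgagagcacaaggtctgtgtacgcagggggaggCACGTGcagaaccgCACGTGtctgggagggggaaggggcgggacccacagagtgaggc
Per3: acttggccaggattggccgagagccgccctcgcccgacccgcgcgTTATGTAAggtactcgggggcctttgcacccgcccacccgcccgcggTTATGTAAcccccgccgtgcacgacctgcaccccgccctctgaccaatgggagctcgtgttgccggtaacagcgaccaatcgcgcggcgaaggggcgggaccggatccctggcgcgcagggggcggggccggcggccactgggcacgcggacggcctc

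The Tef promoters at chr15:81802423-81802672 and chr15:81811164-81811413 (plus strand) each held 1 E-box, that of the upstream promoter 127 bases before the start site. The Ciart promoter at chr3:95882229-95882478 (minus strand) held 3, and the Per3 promoter at chr4:151044666-151044915 (minus strand) held 2 D-boxes, 205 and 158 bases before the start. Ciart, a clock repressor gene, ran from 2.95 CPM in E460 over 9.92 CPM to 23.5 CPM in E565 and correlated with Dbp at 0.725. A match of letters is a description and not a binding site. The promoter of Dbp held neither motif in this window.

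The fasting genes varied widely in some members and little in others. Of 20 genes of the hepatic fasting response, 13 were above the trend (65%, against 7.86% of all genes). Rgs16, a regulator of G-protein signalling, ran from 0.689 CPM in E774 over 13.2 CPM to 43.0 CPM in E647. Cidec, encoding a lipid droplet protein, ran from 0.492 CPM in E760 over 7.41 CPM to 31.8 CPM in E691. G0s2, the gene of an inhibitor of the lipase ATGL, ran from 14.4 CPM in E647 over 33.5 CPM to 208 CPM in E774, and its correlation with Cidec was 0.299. The gluconeogenic genes Pck1 and G6pc had BCVs of 27.7% and 34.6%, and their correlation was -0.136, whereas the rank correlation was 0.394. Pck1 was lowest in E373 with 1183 CPM against a median of 3745 CPM, and in that mouse G6pc was highest with 814 CPM. The coactivator gene Ppargc1a and the tyrosine aminotransferase gene Tat varied together at 0.905, and both were lowest in E459 and highest in E761. Among the 22 PPARα targets, which handle fatty acids, 10 were above the trend with a median pairwise correlation of 0.552. Ehhadh ran from 661 CPM in E760 to 2614 CPM in E419.

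Lipid and sterol synthesis also differed between the fasted livers. Of 15 lipogenic genes, 11 were above the trend (73.3%, against 7.86% of all genes). Fasn, the fatty acid synthase gene, ran from 27.3 CPM in E774 over 41.3 CPM to 123 CPM in E373, and Thrsp, a lipogenic regulator gene, ran from 6.20 CPM in E774 over 18.1 CPM to 86.5 CPM in E373. Their transcriptional activator gene Srebf1 correlated with Fasn at 0.745. Of 23 cholesterol synthesis genes, 10 were above the trend, and Cyp51, Idi1, Msmo1 and Insig1 were all highest in E260.

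Other programs spread between these bounds. Of 16 bile acid genes, 6 were above the trend, and Cyp7a1, the rate-limiting enzyme gene of bile acid synthesis, ran from 212 CPM in E774 over 327 CPM to 808 CPM in E373. Its repressor gene Nr0b2 was lowest in E373 with 1.54 CPM against a median of 19.9 CPM. Of 12 pericentral genes, 7 were above the trend, and Glul and Cyp1a2 varied together at 0.887. Hamp, encoding the iron hormone hepcidin, ran from 44.5 CPM in E565 over 214 CPM to 397 CPM in E691. Interferon-stimulated genes were above the trend in 11 of 22 cases, glucocorticoid targets in 10 of 14, immediate early genes in 8 of 15, cell cycle genes in 8 of 21, ATF4 targets in 5 of 14, endoplasmic reticulum stress genes in 5 of 17, heat shock genes in 4 of 13, iron genes in 3 of 12 and periportal genes in 3 of 10. Ribosomal protein genes were so in only 2 of 81 cases, with a median BCV of 11.7%. The share over all genes was 7.86%.

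Some markers of other cells also differed between the livers. All 6 red blood cell markers were above the trend, with a median BCV of 47.7%, a median pairwise correlation of 0.942 and a summed level between 107.5 and 707.7 CPM. Both neutrophil markers had low levels, with a sum between 0.536 CPM in E369 and 13.7 CPM in E422, and a median BCV of 87.6%. The stellate cell and fibroblast markers were above the trend in 4 of 7 cases, against 7.86% of all genes. The endothelial markers were so in 1 of 7 cases, the bile duct markers in 1 of 4 and the B cell markers in 0 of 6. These lists are too small to be set apart from that share. Of the adipocyte markers only Plin4 and Car3 were in the table, and both were above the trend. Car3 varied in a group with Cyp2c29 and Gsta3, and whether adipocytes gave these levels was not tested. The single muscle marker, Myh4, was above the trend at a median of 0 and a maximum of 1.39 CPM. Small RNA genes, of which 60 of 81 were above the trend, took between 0.367% and 0.922% of the counts, and a group of 34 genes that varied together, most of them small RNA genes, had its highest mean level in E752. Of 17 mitochondrial genes, 8 were above the trend. The part of blood content, RNA recovery and library depth in these levels was not tested.

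The 758 genes were arranged by their correlations over the 20 mice, and 497 of them fell into 46 groups of at least 5 genes (average linkage, 1 − r cut at 0.4). The largest group held 42 genes, among them the enzyme genes Akr1c6, Ugt2b5, Aox3 and Ces1f and the interferon-related genes Irf7, Iigp1 and Apol9b, with a mean correlation of 0.664, and was lowest in E373 and highest in E760. The next held 35 genes, with every Mup gene that entered the grouping except Mup20 beside Sult2a8, Cyp7b1 and Cyp4a12a, at a mean correlation of 0.736, and was highest in E460 and lowest in E260. Another group of 34 with Cidec, Bhmt and Slc37a4 was highest in E373 and lowest in E760, the reverse of the largest group. Lepr, Igfbp1 and Vcam1 shared a group of 18 that was highest in E260 and lowest in E460. H19 grouped with the lipase gene Lpl and 5 other genes. All points of these correlations share the same 20 libraries, so they are given as descriptions.

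Body weight went with the main axis of difference between the livers. Body weight and fasting glucose were taken from the study's phenotype list and expressed in SD units of the 20 mice, in which weight spanned 2.77 SD and glucose 3.80 SD. The first principal component of log2 CPM held 19.5% of the variance and the second 13.4%. The first component correlated with weight at r = 0.718 (rho = 0.734, permutation p = 0.00064, adjusted over 12 relations p = 0.00768, n = 20), and r was 0.788 without E752 and E774, the 2 mice farthest from the median weight. It correlated with glucose at r = 0.568 (rho = 0.622, permutation p = 0.00874, adjusted p = 0.0387). Without E460 and E459 r was 0.353, so that its size depended in part on those mice. The first component also correlated with log10 of the total count at r = -0.541 (rho = -0.460, permutation p = 0.0128, adjusted p = 0.0387), with r = -0.395 without E776 and E774. These p-values are those of r. The permutation test of rho gave an adjusted p of 0.00396 for weight, 0.0235 for glucose and 0.087 for total count.

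The traits were not independent of each other or of the libraries. Weight correlated with glucose at r = 0.518 (rho = 0.568, permutation p = 0.018, adjusted over 6 relations p = 0.036), with r = 0.642 without the 2 mice farthest from the median weight. Heavier mice had shallower libraries, with r = -0.593 between weight and log10 total count (rho = -0.496, permutation p = 0.00494, adjusted p = 0.0148) and r = -0.447 without those 2 mice. The number in the mouse name, whose meaning the sources used here do not give, correlated with log10 total count at r = -0.602 (rho = -0.556, permutation p = 0.00415, adjusted p = 0.0148), with r = -0.467 without E260 and E776, and with the second component at r = 0.540 (rho = 0.508, permutation p = 0.0129, adjusted p = 0.0387). Weight correlated with that number at r = 0.399 (rho = 0.445, permutation p = 0.0812, adjusted p = 0.122), with r = 0.232 without E752 and E774. The p-values here are again those of r. In the permutation test of rho, the adjusted p was 0.055 for weight and total count and 0.0768 for weight and the number. It was 0.0634 for the number and the second component, and 0.036 for weight and glucose and for the number and total count. Weight, depth and the number in the mouse name therefore cannot be fully told apart in 20 animals.

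In heavier B6 mice a set of metabolic enzyme and interferon-related genes and Mup20 was higher and a smaller set that included Cyp39a1, Rgs16 and Slc37a4 was lower. A slope of log2 expression on weight was fitted for each gene with edgeR's quasi-likelihood test, and 90 of 13289 genes (0.677%) passed an FDR of 0.05, 61 with a positive slope (0.459%) and 29 with a negative one (0.218%). At an unadjusted p under 0.05, 2269 genes passed (17.1%). The calls depended on the model. They numbered 8 with log10 total count as a covariate, 6 with the number in the mouse name, 51 with glucose and 480 by DESeq2's Wald test, and 29 without the 4 mice with the fewest counts. When each mouse was left out in turn, they numbered 41 without E459, 46 without E419 or E760, 57 without E260 or E774, 170.0 without E752, and between 60 and 118 for the other mice except E369, without which 4.69% of the genes tested passed. None of the 90 genes changed sign in any of these fits. Of the 90 genes, 35 were also above the abundance trend.

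Cyp39a1, an oxysterol hydroxylase gene with female-biased expression, ran from 47.3 CPM in E459 over 80.6 CPM to 129 CPM in E373, with a slope of -0.32 (SE 0.05, adjusted p = 0.0057 by edgeR), and was the only one of the 24 weight genes followed through all settings that passed in each of the 12 other fits and without each mouse. Rgs16 had a steeper slope of -0.81 (SE 0.19, adjusted p = 0.0419 by edgeR) but passed in only 5 of the 12 other fits and in 7 of the 20 fits without a mouse, and its highest adjusted p was 0.409. Fmo2 had a slope of -0.37 (SE 0.08). Slc37a4, the glucose 6-phosphate transporter gene needed for glucose release, was highest in the lightest mouse, E373, at 434 CPM and lowest in E774 at 149 CPM, with a slope of -0.30 (SE 0.06). The other genes lower in heavier mice included the interleukin 6 receptor gene Il6ra, the integrin gene Itgb3, the glutathione transferase gene Gstt3 and the Hippo pathway factor gene Tead1, with slopes between -0.34 and -0.26.

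Among the genes higher in heavier mice, Mup20 had a slope of 0.68 (SE 0.15, adjusted p = 0.0302 by edgeR), a 3.73-fold difference over the span of weight, and passed in 6 of the 12 other fits and in 15 of the 20 without a mouse. Mup7 had a slope of 0.88 (SE 0.26, adjusted p = 0.0894) and did not pass, and it was low in only some of the light mice. E260, E419 and E691 lay at -0.97, -1.02 and -1.01 SD of weight, whereas E373 at -1.23 SD had 192 CPM and E565 at -0.85 SD had 373.2 CPM. The uncharacterised noncoding RNA 9030616G12Rik had a slope of 0.68 (SE 0.11) and ran from 0.854 CPM in E373 to 10.2 CPM in E774. Aox3, an aldehyde oxidase gene, ran from 93.2 CPM in E373 over 237.2 CPM to 474 CPM in E460, with a slope of 0.49 (SE 0.10, adjusted p = 0.016 by edgeR). Hectd2os, annotated as antisense to Hectd2, had a slope of 0.65 (SE 0.13), and whether the counting used strand was not given in the sources used here. The carboxylesterase gene Ces1f, the aldo-keto reductase gene Akr1c6 and the glucuronosyltransferase gene Ugt2b5 had slopes of 0.43, 0.42 and 0.34. Ghr had a slope of 0.25 (SE 0.05, adjusted p = 0.016 by edgeR), a 1.61-fold difference over the span.

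Of the 22 interferon-stimulated genes, 5 passed with positive slopes and 0 with negative ones, and their median slope was 0.27, against -0.00086 for all genes. Ifit1, encoding an antiviral RNA-binding protein, ran from 4.10 CPM in E373 over 8.69 CPM to 18.7 CPM in E369, with a slope of 0.43 (SE 0.08). The immunity-related GTPase gene Iigp1 had a slope of 0.32, the interferon regulatory factor gene Irf7 one of 0.29 and the apolipoprotein L genes Apol9a and Apol9b slopes of 0.41 and 0.38. Of the 18 Mup genes, 1 passed and the median slope was 0.48. Of the 13 female-biased genes 3 passed with negative slopes, and of the 14 male-biased genes 0 passed, with a median slope of 0.32. No clock, cholesterol, lipogenic or acute-phase gene passed, but only 0.677% of all genes did, so this does not set these lists apart. At an unadjusted p under 0.05, slopes were negative for 6 of 15 lipogenic, 5 of 23 cholesterol and 4 of 21 acute-phase genes. They were positive for 0, 1 and 1 of these, and 0 of 20 clock genes reached that level, against 17.1% of all genes.

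**Figure D4:**
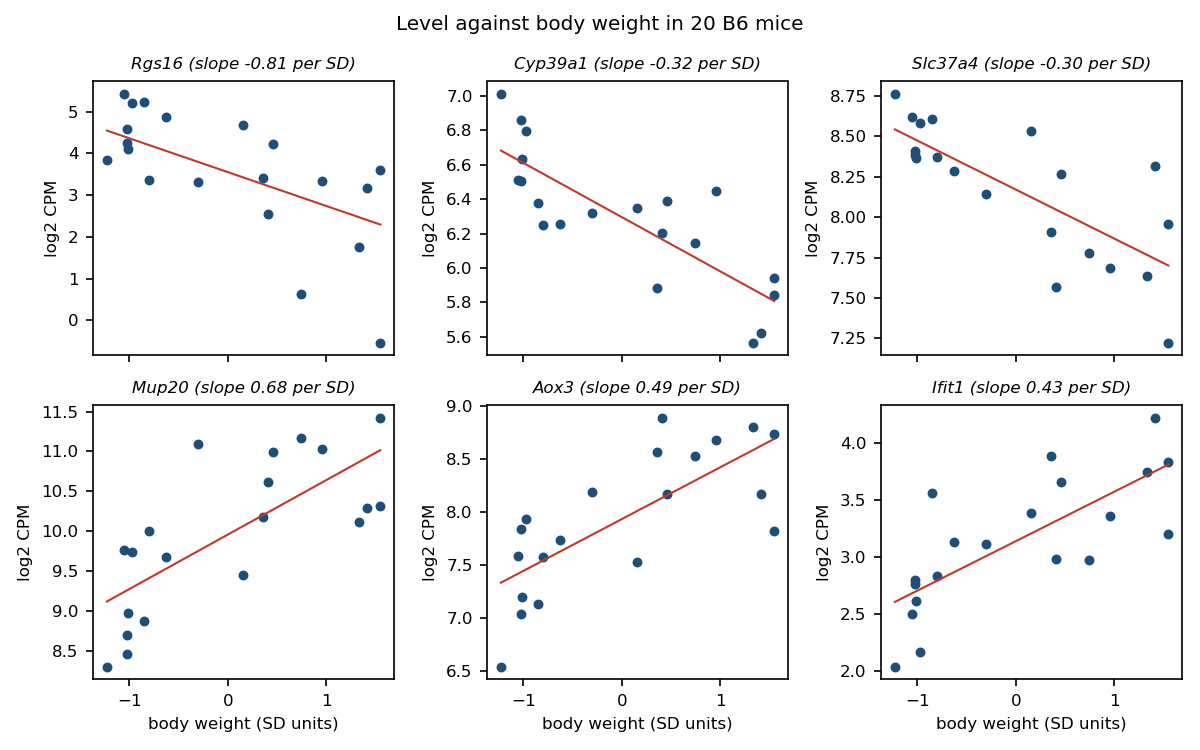
log2 CPM of 6 genes against body weight in SD units, 1 point per B6 mouse (n = 20), with the fitted slope as a red line. Rgs16, Cyp39a1 and Slc37a4 descend with weight at slopes of -0.81, -0.32 and -0.30 per SD, and Mup20, Aox3 and Ifit1 climb at 0.68, 0.49 and 0.43 per SD.

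The same slopes were fitted in the 63 single and 71 double CSS mice of the 23 other strains, with strain as a factor, so that only differences within strains counted. There 645 genes passed (4.85%), 338 with a positive (2.54%) and 307 with a negative slope (2.31%). Of the 90 genes called in B6, 88 had the same sign in the other strains (97.8%, against 64.5% of all genes), 39 passed there with the same sign (43.3%) and 0 passed with the opposite one. Rgs16 had a slope of -0.63 (SE 0.12) in the other strains, Mup20 one of 0.53 (SE 0.09), Cyp39a1 one of -0.31 (SE 0.05) and Aox3 one of 0.36 (SE 0.05), and each passed. Ifit1 with 0.11 (SE 0.05) and Hectd2os with 0.13 (SE 0.07) did not, although their B6 slopes were 0.43 and 0.65. In the larger set, 15 of 18 Mup genes and 12 of 14 male-biased genes passed with positive slopes, and 0 of either list with negative ones. Of the 13 female-biased genes, 9 passed with negative slopes. Of the 22 interferon-stimulated genes, only 3 passed there with positive slopes and 0 with negative ones. The median slope of that list was 0.0855 in the other strains, against 0.27 in B6. Mup7 passed there with a slope of 0.57 (SE 0.12), Cyp7b1 with 0.44 (SE 0.07) and Cyp2b9 with -1.36 (SE 0.19). A test of the difference between the B6 slope and that of the other strains called 0 of 13289 genes in edgeR, with 1309 at an unadjusted p under 0.05 (9.85%) and 2 calls by DESeq2.

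**Figure D5:**
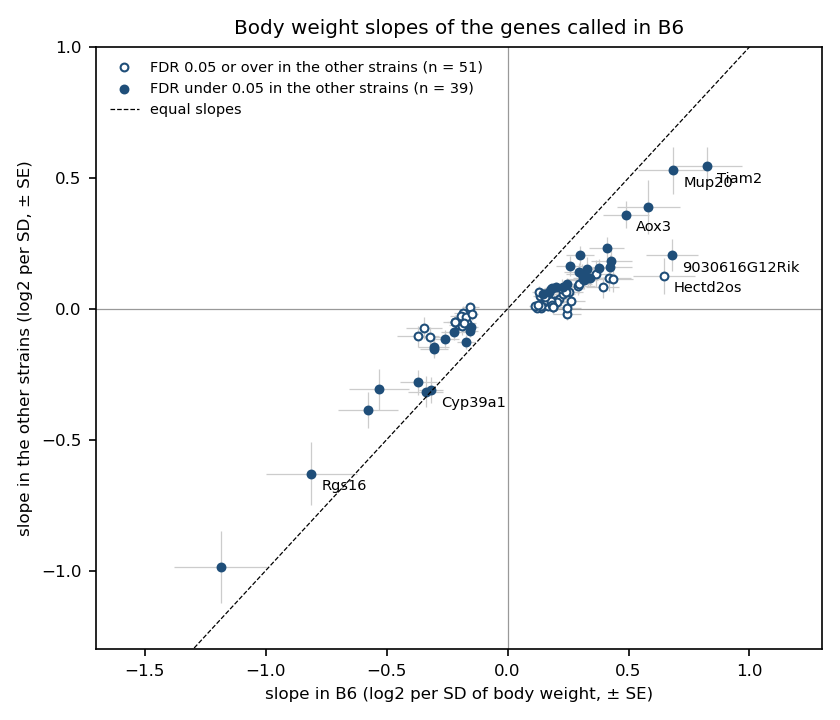
Body weight slopes with SE of the 90 genes called in B6, in B6 on the x axis and in the mice of the other strains on the y axis, both in log2 per SD of weight. Of the points, 88 lie in the quadrants of equal sign, and the points, which were chosen by their B6 slopes, lie closer to 0 in the other strains than in B6, with Mup20 and Cyp39a1 near the dashed line of equal slopes.

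Fasting glucose gave no call in B6. With the same model, 0 of 13289 genes passed an FDR of 0.05 in edgeR, with 1645 at an unadjusted p under 0.05 (12.4%), 140 calls by DESeq2's Wald test, 23 with log10 total count as a covariate and 259 with the number in the mouse name. Leaving out a mouse gave 21 calls without E260, 20 without E421, 11 without E369, 1 without E565 and 0 without any of the other 16. The lowest adjusted p was 0.0903. The largest named slopes at that level were those of Hsd3b5, with 0.86 (SE 0.17), and of the organic anion transporter gene Slc22a30, with 0.43. Of the 23 cholesterol synthesis genes, 12 had a positive slope at an unadjusted p under 0.05 and 0 a negative one, and of the 6 red blood cell markers 5 had a negative one. In the other strains 25 genes passed (0.188%), 17 with a positive (0.128%) and 8 with a negative glucose slope (0.0602%). Those 25 calls became 42 without the 1 mouse of the other strains that lacked Y-linked counts.

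The genes that varied in B6 were largely those that varied among mice of like genotype elsewhere. The same goodness-of-fit test with strain as a factor in the 63 single CSS mice called 1439 genes (10.8%), and 884 genes were shared, which were 84.7% of the B6 list and 61.4% of the single CSS list. Of the genes not above the trend in B6, 4.53% were above it there. Across the 9514 genes with a mean log2 CPM of 2 or more, the BCVs of both sets correlated at r = 0.771 on the log scale (rho = 0.745), and the medians were 11.4% each. Among the named genes, the spread within the single CSSs was 67.6% for Mup7, 94.3% for Saa1, 65.2% for Dbp and 69.7% for Cyp3a11. H19 with 89.9% against 135% and Hmox1 with 19.1% against 53.9% had smaller values there, a difference that was not tested.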

How the data were processed

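The authors prepared stranded total RNA libraries, aligned single-end reads with TopHat2 to mm10 and then the unaligned ones to the A/J sequence. Reads were assigned to genes with HTSeq-count, and sparsely counted genes were filtered out. The deposited values for 154 mice, of which 20 were B6, are raw counts, which are whole numbers without normalization. Body weight and glucose came from the study's phenotype list and were used only in SD units. Gene positions and types were taken from GENCODE vM21 (GRCm38), in which 13242 of the 13289 genes had a symbol.

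Libraries were scaled by TMM in edgeR 4.0.16 (R 4.3.3), and log2 CPM used a prior count of 2. The spread was tested with edgeR's goodness-of-fit test with dispersion 0 or the trended dispersion of the 20 mice, and the BCV is the square root of the unshrunken dispersion. Slopes were tested with edgeR's quasi-likelihood test (legacy=TRUE). Benjamini-Hochberg adjustment ran over all genes. Mice are the replicates, and p-values measure the spread between these animals and their libraries. Correlations with components used 100000 two-sided permutations. Intervals for single values are not given, since each gene has 20 mice.

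The genes named are, among genes with a mean log2 CPM of 2 or more, the 25 above the trend with the largest BCV, up to 12 weight genes in each direction, the 5 with the smallest p of any called for the difference of slopes, and up to 4 members of each list with the largest BCV. Further list members and genes of the co-varying groups were named after their values were seen, as were the lists of ribosomal protein, mitochondrial, small RNA and histone genes. Of the 26 histone genes, 7 were above the trend. The members and lists were chosen with earlier results of these data known. Alternatives were RLE scaling, a filter of 15 counts in 75% of samples, legacy=FALSE, DESeq2 1.42.0, covariates, surrogate variables (sva 3.50.0) and leaving out mice. Those without E422, without the 4 shallowest libraries, without CT010467.1, with depth and number together, and without the mouse that lacked Y-linked counts were added after seeing the data. On simulated data, the trend test recovered 82 of 100 genes with a BCV of 2 times the trend and 100 of 100 with 3 times. The weight test in B6 recovered 80 of 100 slopes of 0.25 and the glucose test 79 of 100. Unchanged genes called in these runs numbered 7 and 15. The slopes were simulated gene by gene at the trended dispersion, in genes with a mean log2 CPM of 2 or more. They give no recovery rate for genes above the trend, such as Mup7, whose larger weight slope did not pass. Results for a few genes are not reported here.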

Additional observations from a re-analysis of the deposited data

How the results depend on the processing

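The counts of genes beyond counting error and above the trend stayed within 1.5 times under all alternatives run, with 11605 to 11853 and 986 to 1040.0 genes when each mouse was left out and 1276 above a common dispersion in place of the trend. Calls for the body weight slope in B6, 0.677% of the genes tested, became 4.09% by DESeq2, 0.0602% with log10 total count as a covariate (7 of the 90 kept), 0.0452% with the number in the mouse name (6 kept), 0.113% with both, 0.384% with glucose (27 kept), 1.099% with 2 surrogate variables (73 kept) and 0.218% without the 4 shallowest libraries (22 kept), and lay between 0.309% and 4.69% when each mouse was left out. Calls for the fasting glucose slope in B6, 0 in number, became 1.90% of the genes tested by DESeq2, 0.173% with log10 total count, 1.95% with the number in the mouse name and 0.00753% (1 gene) with 2 surrogate variables, and lay between 0 and 0.158% when each mouse was left out. Calls for the fasting glucose slope in the other strains (0.188%) became 0.548% by DESeq2, 0.594% with 5 surrogate variables and 0.316% without the mouse that lacked Y-linked counts, whereas those for the body weight slope in the other strains stayed between 4.85% and 5.55%. The 0 calls for the difference of the body weight slope between B6 and the other strains became 2 (0.0418%) by DESeq2. All DESeq2 shares are taken over only those genes to which DESeq2 gave an adjusted p. They are therefore not on the same base as the edgeR shares. The correlation of component 1 and fasting glucose in B6 was 0.5001 over all genes (adjusted permutation p = 0.0745). The causes were not tested.

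Of the weight slopes of named genes, 35.8% no longer passed under other settings and 16.9% (81 of them) no longer passed with a mouse left out, and none changed sign. The genes named for having the largest BCV above the trend stayed above it under all other settings run and in all 500 comparisons with a mouse left out. The remaining named genes, some of which were not above the trend, were not followed in this way. No paired analysis was possible because the B6 mice form 1 group and their numbers name no partner. The 20 libraries of 6752637 to 25630807 counts limit what was detectable for genes with few counts, and heavier mice had the shallower ones.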

Other observations

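Several genes outside the lists differed widely between the livers. Serpina4-ps1, a serpin pseudogene transcript, was at 36.7 CPM in E459, whereas the next mouse had 6.86 CPM and the median was 2.59 CPM, and its BCV of 100.2% became 65.1% without E459. Tff3, encoding a secreted trefoil peptide, was at 160.9 CPM in E752 against a median of 17.8 CPM, and it shared a group with the fatty acid carrier genes Cd36 and Fabp4. Serpina12, the vaspin gene, lay between 0.141 CPM in E419 and 9.57 CPM in E566, with 9.46 CPM in the next mouse, and grouped with the Mup genes. The small RNA gene Gm22513 ran from 4.11 CPM in E630 to 97.8 CPM in E752, followed by 85.7 CPM in E774, and Rny3, encoding a Y RNA, ran from 2.85 CPM in E630 to 39.8 CPM in E752.

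E373, the lightest mouse, held a particular combination of levels. Along the third component, which held 10.9% of the variance, its score was 26.5, followed by 16.9 in E774 and 10.5 in E776, and the other 17 mice were at or under 1.87. It had the highest levels of Arntl, Cry1, Fasn, Thrsp, Srebf1, Cyp7a1, G6pc, Cyp2b10 and Sult1e1 and the lowest of Pck1, Nr0b2, Egr1, Ifit1 and Aox3. Its library had 18055151 counts, close to the median.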
